A study of Homo sapiens with 6 samples.

Results

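E proteins, ID proteins and musculin are the helix-loop-helix factors that pair with MyoD or compete for its partners, and their expression was compared between rhabdomyosarcoma cells with and without MyoD. The set holds 8 genes, TCF3, TCF4, TCF12, ID1, ID2, ID3, ID4 and MSC, out of 22448 genes with a value. It was chosen by gene name, and each gene was read from 1 transcript cluster of the array that carries its symbol alone. All 8 were measured, each by a single such cluster, and none was removed by a filter on low values.

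RNA came from RH30 cells, a long-established line from a fusion-positive (alveolar) rhabdomyosarcoma, grown in medium with fetal bovine serum. Cells of both groups expressed the IκBα super-repressor (SR), which blocks NF-κB. The RH30-SR group had MyoD intact (condition control, 3 arrays), and in the RH30-SR MyoDΔ group MyoD had been ablated with CRISPR/Cas9 and a single clone, number 29, had been selected (3 arrays). The sources differ on the control cells of these arrays: the labels and the array methods name them RH30-SR only, whereas a legend for the same comparison calls them RH30-SR Vector, a name that the study uses elsewhere for cells with a scrambled guide RNA. How the replicate cultures were kept apart is not stated. Clone and deletion cannot be told apart, and the p-values reflect only how far these arrays spread, which may be technical.

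MyoD is a basic helix-loop-helix (bHLH) protein. It binds DNA at the E-box, a short palindromic motif, as a dimer with a broadly expressed E protein. TCF3 encodes the E proteins E12 and E47, TCF12 encodes HEB, and TCF4 encodes E2-2, which is unrelated to the Wnt effector TCF7L2 that is also often called TCF4. ID proteins have the helix-loop-helix but lack the basic region, so that they hold E proteins in dimers that cannot bind DNA and thereby restrain differentiation. Musculin, the product of MSC and also called MyoR, is a bHLH repressor known from mouse myoblasts to pair with E proteins and to occupy E-boxes in competition with MyoD.

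The RefSeq promoter windows of ID1, ID2 and ID4 (250 bases before to 50 after the annotated start, GRCh38.p14, given 5′ to 3′ on the strand of the gene) are shown because, as described in the next paragraphs, ID1 was the member of the ID family that was lower in MyoDΔ cells, and ID2 and ID4 are the members whose windows hold CAGCTG, an E-box of the kind that MyoD prefers. Capitals mark every E-box, CANNTG. ID1 lies at chr20:31605039-31605338 (plus strand), ID2 at chr2:8681806-8682105 (plus strand) and ID4 at chr6:19837120-19837419 (plus strand).
ID1: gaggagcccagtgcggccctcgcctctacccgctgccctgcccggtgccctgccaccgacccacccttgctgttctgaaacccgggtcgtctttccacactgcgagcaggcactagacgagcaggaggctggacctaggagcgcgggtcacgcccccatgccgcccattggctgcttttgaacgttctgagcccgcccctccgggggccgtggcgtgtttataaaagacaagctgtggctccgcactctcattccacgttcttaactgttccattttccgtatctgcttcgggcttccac
ID2: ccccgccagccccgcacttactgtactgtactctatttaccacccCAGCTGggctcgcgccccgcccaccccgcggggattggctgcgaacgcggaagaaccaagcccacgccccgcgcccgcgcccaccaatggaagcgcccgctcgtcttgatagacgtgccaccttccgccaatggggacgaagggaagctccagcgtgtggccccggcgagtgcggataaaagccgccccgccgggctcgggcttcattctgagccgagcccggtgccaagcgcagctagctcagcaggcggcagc
ID4: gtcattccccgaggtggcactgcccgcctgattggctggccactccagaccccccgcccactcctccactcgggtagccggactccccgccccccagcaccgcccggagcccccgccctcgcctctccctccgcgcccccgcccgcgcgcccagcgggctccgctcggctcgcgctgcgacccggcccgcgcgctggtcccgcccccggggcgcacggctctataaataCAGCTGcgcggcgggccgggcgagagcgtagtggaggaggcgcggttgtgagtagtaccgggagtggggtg
The window of ID1 holds 0 E-boxes, and so do those of ID3 and TCF3. Those of ID2 and ID4 hold 1 each, in both cases CAGCTG. TCF4 has 10 annotated starts, 7 of them with an E-box in the window, and TCF12 has 5 starts, 2 of them with one, but CAGCTG was in none of these 15 windows. A window for MSC was not used here. Over all 35116 RefSeq windows of this length, 68.7% hold CANNTG, 17.9% hold CAGCTG and 20.6% hold CAGGTG or its reverse complement CACCTG, a form of E-box that is in none of the windows of the 7 genes. CANNTG and CAGCTG read the same on both strands, and each CAGCTG or CAGGTG is also a CANNTG. Letters that match are a description of the sequence and not a measured binding site, and the arrays did not measure binding.

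Of these partners MSC, ID1 and TCF4 were lower in MyoDΔ cells, and none was higher. MSC fell 2.13-fold, ID1 1.46-fold and TCF4 1.32-fold, whereas TCF3, TCF12, ID2, ID3 and ID4 did not pass the test. A gene was called when the adjusted p of limma was below 0.05 and its level differed by more than 25% between groups, which is 0.32 on the log2 scale. By this rule 3 of 8 members (37.5%) were called, all 3 as lower and 0 as higher. Among all genes 7.01% were called, 4.20% as lower and 2.81% as higher. At an unadjusted limma p below 0.05, 4 members were lower and 0 were higher. The share of all genes at that cut-off was not counted, so that such numbers, here and for the lists below, have no comparison. The genes of the set were chosen with these results known, so that the share of members called is a description of the set. Its median log2 fold change was -0.13, against -0.01 for all genes.

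**Figure D1:**
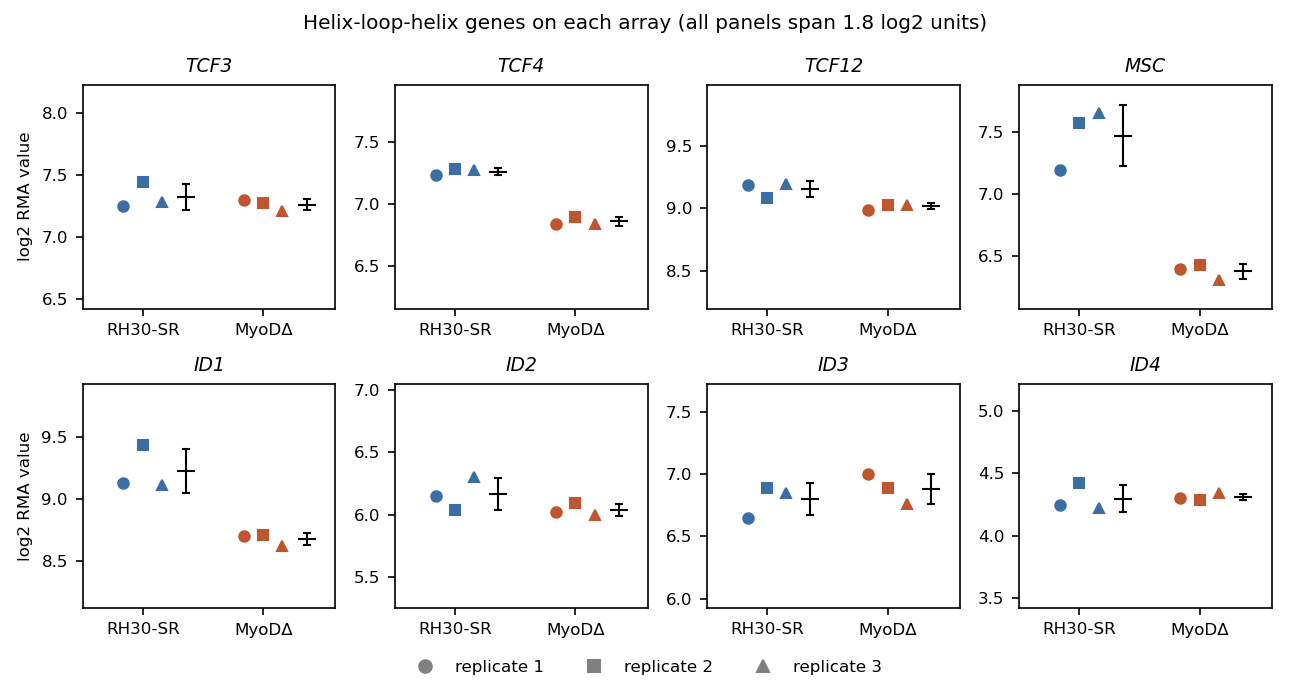
Log2 RMA value (y axis) of each of the 8 genes on the 3 RH30-SR and 3 RH30-SR MyoDΔ arrays (x axis), with the symbol shape giving the replicate number and black marks the mean ± SD (n = 3 per group). Every panel spans the same number of log2 units. The groups are apart for MSC, ID1, TCF4 and, narrowly, TCF12, as they are for 34.2% of all genes.

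The RNA of the targeted gene was read first. MYOD1 read 9.09, 9.50 and 9.43 on the RH30-SR arrays and 6.95, 7.16 and 6.90 on the MyoDΔ arrays, which gave -2.34 ± 0.12 (SE) as the log2 fold change. All MyoDΔ arrays lay below all RH30-SR arrays, but still above the median of all clusters (4.295). The arrays read RNA and not MyoD protein, which the study probed by western blot in RH30-SR MyoDΔ cells. Of the other members of the MyoD family, myogenin (MYOG) fell by 2.70 on the log2 scale, MYF5 rose by 0.98 and MYF6 read 0.00 ± 0.10 (SE).

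Among the E proteins, TCF4 was the 1 called gene. It read 7.23, 7.28 and 7.27 in RH30-SR and 6.84, 6.90 and 6.84 in MyoDΔ cells. The spread within either group was small beside the gap, and the groups did not overlap. The log2 fold change was -0.40 ± 0.05 (SE, n = 3 per group), with a 95% interval of -0.52 to -0.28 and a limma adjusted p of 0.00465. The interval extends past the fold threshold of 0.32, so that a change of less than 25% was not excluded by these arrays. The call held without any 1 array (adjusted p 0.0154 to 0.0290).

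TCF12 read 9.19, 9.08 and 9.20 in RH30-SR and 8.99, 9.03 and 9.03 in MyoDΔ cells. These groups did not overlap either, although they nearly touched, and 34.2% of all genes had groups that did not overlap. The log2 fold change was -0.14 ± 0.05 (SE, adjusted p = 0.224), with an interval of -0.27 to -0.01. TCF3 gave 7.25, 7.44 and 7.28 against 7.30, 7.27 and 7.21, and its groups overlapped (-0.06 ± 0.07, SE, adjusted p = 0.696). The interval for TCF3, -0.22 to 0.09, as that for TCF12, lies within the fold threshold on both sides. E12 and E47 arise from TCF3 by alternative splicing, and a value per transcript cluster does not tell them apart.

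Of the ID genes, only ID1 was called. ID1, which in mouse myoblasts holds E proteins away from MyoD, read 9.13, 9.43 and 9.11 in RH30-SR and 8.70, 8.71 and 8.62 in MyoDΔ cells. RH30-SR replicate 2 was the highest array, and the lowest RH30-SR array still exceeded the highest MyoDΔ array. The log2 fold change was -0.55 ± 0.09 (SE, n = 3 per group), with an interval of -0.77 to -0.33 and a limma adjusted p of 0.0171. Without RH30-SR replicate 2 it was -0.44 (adjusted p = 0.0122). The call was lost without any 1 MyoDΔ array (-0.56, -0.56 and -0.52 without replicates 1, 2 and 3, adjusted p = 0.0601, 0.0609 and 0.0739).

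ID2, ID3 and ID4 did not pass the test. ID2 read 6.15, 6.04 and 6.30 in RH30-SR and 6.02, 6.09 and 6.00 in MyoDΔ cells (-0.13 ± 0.08, SE, adjusted p = 0.443). ID3 read 6.65, 6.89 and 6.85 against 7.0, 6.89 and 6.76 (0.09 ± 0.09, adjusted p = 0.688). ID4, best known from neural and glial cells, read 4.25, 4.42 and 4.22 against 4.30, 4.29 and 4.34 (0.01 ± 0.07, adjusted p = 0.95). In each of the 3 genes the groups overlapped. The 95% intervals were -0.30 to 0.05 for ID2, -0.12 to 0.30 for ID3 and -0.14 to 0.17 for ID4, and all lie inside the fold threshold. ID4 lay at the median of all clusters (4.295). Its level relative to background is not known from the values used here. Probes of ID2 could also read ID2B, annotated as a pseudogene, whose own cluster read 6.50, 6.63 and 6.57 against 6.43, 6.19 and 6.37 (-0.24, adjusted p = 0.143).

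MSC showed the largest change of the 8 genes. It read 7.19, 7.57 and 7.65 in RH30-SR and 6.40, 6.43 and 6.31 in MyoDΔ cells. RH30-SR replicate 1 was the lowest control array and was still above every MyoDΔ array. The log2 fold change was -1.09 ± 0.12 (SE, n = 3 per group), with an interval of -1.37 to -0.81 and a limma adjusted p of 0.00292, which corresponds to a level 2.13-fold lower (1.75 to 2.59). By size of change MSC ranked 141 among 22448 genes, ID1 594 and TCF4 1170. Without RH30-SR replicate 1 the change of MSC was -1.23, and without any 1 array it stayed between -1.23 and -1.0 (adjusted p 0.000735 to 0.0186).

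**Figure D2:**
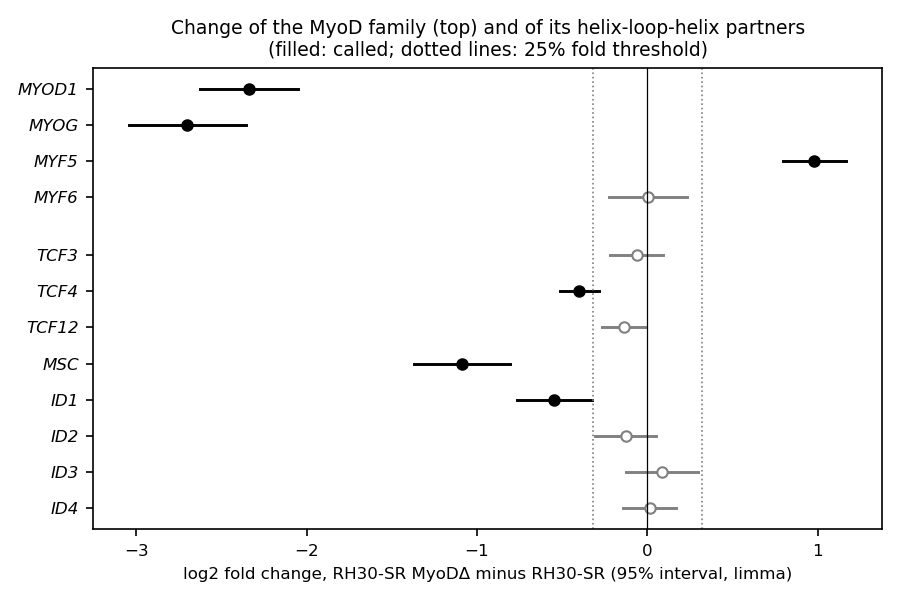
Log2 fold change, RH30-SR MyoDΔ minus RH30-SR (x axis), of the MyoD family and the 8 helix-loop-helix genes (y axis), as points with 95% intervals from limma (n = 3 per group). Filled points passed the test and open points did not, and the intervals of TCF3, TCF12, ID2, ID3 and ID4 stay between the dotted lines of the fold threshold.

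Paralogs were also set against each other within arrays, as the log2 difference of one gene to the other on each array. The comparison was added after the data had been examined. For ID1 against ID3 this difference was 2.48, 2.54 and 2.26 in RH30-SR and 1.70, 1.82 and 1.86 in MyoDΔ cells, a shift of -0.63 between groups with no overlap. The shift was -0.42 for ID1 against ID2, -0.56 for ID1 against ID4, 0.34 for TCF3 against TCF4 and -0.26 for TCF4 against TCF12, each with groups that did not overlap. The differences do not compare amounts of RNA, since probes differ in brightness. These are the 5 of 9 pairs within the families that hold ID1 or TCF4, the genes already called. Their exact two-sided permutation p was 0.10 (0.18 after Benjamini-Hochberg adjustment over 9 pairs), the smallest that 3 arrays against 3 allow, so that none could pass and unequal change of the paralogs was not shown by this test. In the other 4 pairs the shifts ranged from -0.21 to 0.08 with exact permutation p-values of 0.30 to 0.60.

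The genes next to the members on the chromosome, up to 3 measured genes on each side in RefSeq order, gave 4 called genes among 48 neighbours (8.33%), near the 7.01% called among all genes. Of the 6 neighbours of TCF4 none was called, but 5 of them lay below the median of all clusters. Next to MSC, EYA1, a transcriptional coactivator known from mouse muscle progenitors, was lower (-0.55 ± 0.05, SE, limma adjusted p = 0.00151), and the other 5 neighbours lay below the median of all clusters. Next to ID1, BCL2L1, the gene for the survival protein BCL-XL, was lower (-0.43 ± 0.05, adjusted p = 0.00283) and COX4I2 read -0.01 ± 0.09 (adjusted p = 0.985). E2F2 beside ID3 was lower (-0.47) and RNF144B near ID4 was higher (1.12), although neither ID gene was called. Copy number was not measured, and its part in any of these changes was not tested.

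Other bHLH factors that can draw on the same E proteins gave 2 called genes of 22 measured (9.09%). TCF21, a factor of mesodermal organs, rose from 4.30 ± 0.03 to 4.69 ± 0.08 (SD, n = 3), and TWIST1, which in mouse myoblasts restrains MyoD, fell from 4.25 ± 0.07 to 3.90 ± 0.04. TCF21 lay close to the median of all clusters (4.295). TWIST1 lay below it on every array, so that the filter on low clusters left TWIST1 out. The call of TCF21 (limma adjusted p = 0.0102) was lost without MyoDΔ replicate 2 (0.0513). The call of TWIST1 (0.0142) was lost without RH30-SR replicate 1 or MyoDΔ replicates 2 or 3 (0.0548 to 0.0661), and also when the replicate number was fitted as a block (0.0607). The other 20 genes were not called, and the list had a median of -0.05.

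The HES, HEY and BHLHE genes, bHLH repressors of which several answer to Notch signalling, held 5 called genes of 12 (41.7%). HEYL, a Notch target, read 6.87, 7.02 and 6.81 in RH30-SR and 6.19, 6.27 and 6.02 in MyoDΔ cells (-0.74 ± 0.09, SE). HEY1, another Notch target, changed by -0.62 ± 0.06. The paralogs BHLHE40 and BHLHE41, which act in the circadian clock, went in opposite directions, with BHLHE40 lower (-0.58 ± 0.08) and BHLHE41 higher (0.61 ± 0.05). The adjusted p of these 4 genes was 0.000953 to 0.00611. HES6, known in mouse to promote myogenesis, was lower as well (-0.34 ± 0.06, adjusted p = 0.0217), close to the fold threshold, and lost its call under 8 of 14 alternatives, among them those without RH30-SR replicates 2 or 3 or any 1 MyoDΔ array. The other 7 genes were not called, HES1 among them (-0.03 ± 0.05), and the median of the list was -0.06.

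Inhibitors and cofactors of bHLH factors that lie outside the family were called in 0 of 12 cases (limma). Among all genes 7.01% were called, a share at which a list this short can hold no called gene. At an unadjusted p below 0.05, 0 were higher and 2 were lower. KAT2B, the acetyltransferase PCAF that acetylates MyoD, had an adjusted p of 0.0300 but remained just inside the fold threshold (-0.31 ± 0.06, SE), and was called as lower without RH30-SR replicate 1 (-0.36). MDFI, which encodes the MyoD family inhibitor I-mfa, read -0.08 ± 0.05 (adjusted p = 0.529).

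ID genes are well-known targets of BMP signalling through SMAD proteins, and the genes of that pathway were read beside them. Of 22 measured, 5 were called (22.7%), 3 of them as higher and 2 as lower, and the median was 0.03. The largest changes were in secreted antagonists. NOG, the gene for noggin, read 6.11, 6.15 and 6.40 in RH30-SR and 3.84, 4.42 and 3.68 in MyoDΔ cells (-2.24 ± 0.19, SE, limma adjusted p = 0.000872). MyoDΔ replicate 2 was the highest of the lower group, and 2 of these 3 arrays lay below the median of all clusters. FST, which encodes follistatin, an inhibitor of activin and myostatin, fell by 1.19 on the log2 scale (SE 0.05), whereas GREM1, the gene for gremlin, another BMP antagonist, rose by 0.56 (SE 0.06).

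The signal transducer SMAD5 (0.36 ± 0.06, SE, limma adjusted p = 0.0194) and the inhibitory SMAD6, itself a known BMP target (0.35 ± 0.07, adjusted p = 0.0252), were also higher. Each lost its call under 6 of 14 alternatives, with adjusted p up to 0.0831 for SMAD5 and 0.101 for SMAD6, and the number of BMP-SMAD genes called as higher was 1 under the replicate block and without RH30-SR replicate 3 or any 1 MyoDΔ array. The other SMAD genes of the list were not called (limma adjusted p 0.0712 to 0.185). These were SMAD7 (0.37 ± 0.09), SMAD9 (0.20 ± 0.06), SMAD4 (0.16 ± 0.05) and SMAD1 (-0.14 ± 0.05). The ligands BMP2 (0.06 ± 0.05), BMP4 (-0.12 ± 0.06) and BMP7 (-0.05 ± 0.05) were not called.

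**Figure D3:**
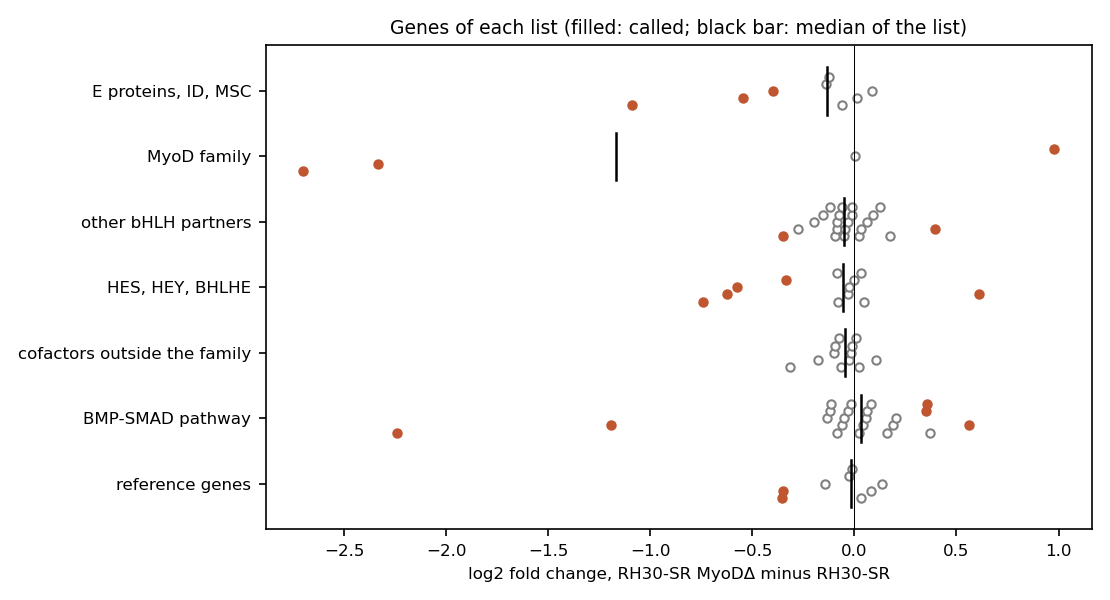
Log2 fold change, RH30-SR MyoDΔ minus RH30-SR (x axis), of each measured gene in 7 lists (y axis). Filled points were called, open points were not and black bars mark list medians. MSC, ID1 and TCF4 are the 3 filled points of the top list, and the cofactors outside the family hold no filled point.

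The genes whose values followed the called members most closely were sought among genes with a mean above the median of all clusters, by Pearson correlation over the 6 arrays. The arrays form 2 groups, so that r mainly reflects the gap between them, and 820 to 1135 genes had an r over 0.95 with each member. MSC was followed most closely by HYKK (0.998), GCSH (0.997) and RTL8C (0.997), and ID1 by LEFTY2 (0.999), WDR45 (0.998) and CCND3 (0.998), the gene for cyclin D3. TCF4 was followed by GATM, an enzyme of creatine synthesis (0.999), ZFAND6 (0.999) and RNF122 (0.999). A high r did not mean a like size of change, since GATM fell by 2.79 on the log2 scale and TCF4 by 0.40, and LEFTY2 changed by -0.08.

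Across the 6 arrays the medians were 4.27 to 4.31, pairs of arrays of 1 group correlated at 0.994 to 0.997 across clusters and pairs from different groups at 0.989 to 0.992. Of 8 measured reference genes, 6 were not called, and PGK1 (-0.35) and GUSB (-0.35) were called as lower, changes close in size to that of TCF4 (PGK1 lost its call without MyoDΔ replicates 2 or 3, and GUSB without RH30-SR replicates 2 or 3 or any 1 MyoDΔ array). Of 12 skeletal muscle and myoblast markers 8 were lower and 1 was higher. Their log2 fold changes ran from -3.67 (CHRNA1) to 0.57 (PAX3), with a median of -1.13. DES, the muscle intermediate filament desmin, read 10.79 ± 0.02 and 8.73 ± 0.08 (SD, n = 3), a log2 fold change of -2.06. This defining marker of muscle was thus present in both groups, although lower in MyoDΔ cells. Of the leukocyte markers 1 of 5 was called, CD68 as higher (mean 6.21 in RH30-SR and 7.10 in MyoDΔ cells). The summed linear level of the list was 141 to 145 in RH30-SR and 196 to 214 in MyoDΔ cells. No gene of the list other than CD68 rose by more than 0.03 on the log2 scale (CD14 -0.17, CD3E -0.03, ITGAM -0.01, PTPRC 0.03). PTPRC, which defines leukocytes, read 2.30 and 2.33, below the median of all clusters. In the endothelial list PECAM1 was lower (1 of 6 called, summed level 87.9 to 92.7 and 84.2 to 88.1), and in the fibroblast list LUM was lower (1 of 7 called, 260 to 293 and 242 to 259). No epithelial or neural marker was called (0 of 6 and 0 of 4, limma), and at an unadjusted p below 0.05 these lists held 1 and 0 genes. Less RNA per cell and fewer cells with the RNA cannot be told apart in bulk samples.

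**Figure D4:**
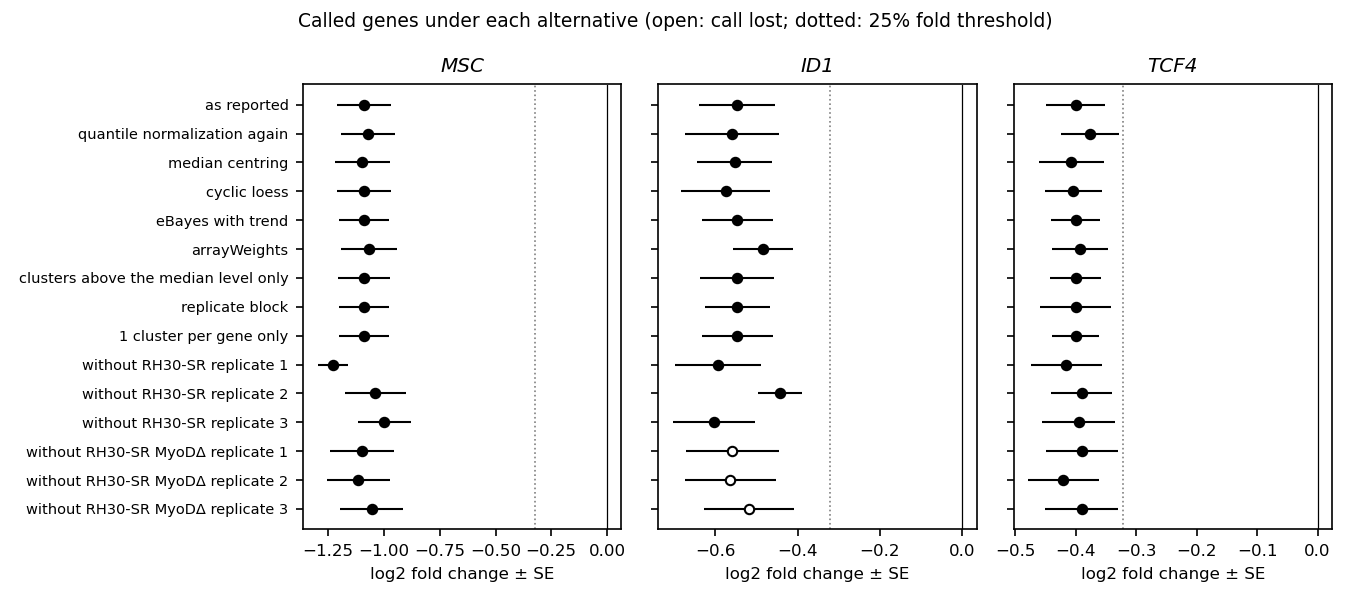
Log2 fold change ± SE of MSC, ID1 and TCF4 (x axis, a separate scale in each panel) as reported and under each of 14 alternatives (y axis). Open points, which occur for ID1 without each of the 3 RH30-SR MyoDΔ arrays, mark settings in which the call was lost.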

How the data were processed

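Trizol-extracted total RNA was labelled with biotin and read on 1-colour Affymetrix Human Transcriptome Array 2.0 chips, 3 per group. The deposited log2 values, 1 per transcript cluster, had been made by the authors with RMA, which corrects background, equalises the distributions of the arrays by quantiles and summarises probes by median polish. Per the submitters' notes this was run in Affymetrix Expression Console, whereas the study's methods name oligo; clusters were annotated with affycoretools and pd.hta.2.0, and versions and genome build are not given in the sources used here. Quantile normalization hides a change common to most transcripts. A further deposited table held identical values. The number of arrays limits the precision, and no batch information was found.

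Of 65535 clusters, 22758 carried 1 gene symbol in the platform annotation, and a gene was read from its cluster with the highest mean. All clusters were fitted with limma 3.58.1 (R 4.3.3, lmFit and eBayes, group as the only term), with two-sided p-values adjusted by Benjamini-Hochberg. The thresholds of 0.05 and 25% follow the study's methods. The script was tested on simulated data.

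Members, lists and tests were chosen with earlier results of these data known. Named genes were the members, the MyoD family, up to 4 called genes of each list (or the gene of lowest adjusted p), and the 3 genes most correlated with each called member. ID2B, HES6, SMAD6, the SMAD genes not called, HES1, MDFI, the BMP ligands, the neighbours and the markers were named after their values had been seen. The 14 alternatives were 3 further normalizations, an intensity trend, array weights, a filter on low clusters, 1 cluster per gene, the replicate number as a block, and each array left out.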

Additional observations from a re-analysis of the deposited data

How the results depend on the processing

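Of 112 values of the 8 members under the 14 alternatives, 106 kept their direction and their side of the threshold. The log2 fold change of ID1 was -0.60 to -0.44 with 1 array left out, and its call was lost in the 3 cases named above. That of ID4, which was not called, was -0.025 to 0.075 with 1 array left out and changed sign in 3 cases. MYF6, also not called, read -0.011 after quantile normalization, -0.0033 after median centring, -0.0026 after cyclic loess and -0.058 to 0.11 with 1 array left out. The number of members called as lower was 2 to 3 and that of members called as higher 0 with 1 array left out, and the number of genes called was 1110 to 1376. Fewer arrays leave fewer degrees of freedom.

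The labels give the replicates of both groups the same numbers. Deviations of equally numbered arrays from their group means correlated at -0.05, -0.04 and 0.03, against -0.11 to 0.12 for other pairs. Whether equally numbered arrays were handled together is not stated, and so few arrays cannot decide it. With the replicate block 1165 genes were called in place of 1573, and MSC (adjusted p = 0.0122), ID1 (0.0303) and TCF4 (0.0316) kept their calls. HES6 (0.0616), SMAD5 (0.0580), SMAD6 (0.0601), TWIST1, PGK1 (0.0518) and GUSB (0.0779) lost theirs. Under the same block the BMP-SMAD list held 1 gene called as higher. No member had a second cluster, so that averaging clusters was not run, and the other deposited table gave no other value. Without a background measure, signals near the median of all clusters may understate changes.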
